A study of Auxenochlorella pyrenoidosa with 12 samples.

Results

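The comparison of the N0.5 group, at 0.5 g/L NaNO3, with the N1.5 control group, at 1.5 g/L, uses 6 of the 12 libraries of a series on the unicellular green alga Auxenochlorella pyrenoidosa, labelled SHOU-1002. Its members were chosen by group label, with 3 libraries in each group, and it was examined across all 15429 features that passed a filter on low counts, of 16413 deposited. The series' design text speaks of biological repetitions, without saying whether these were separate cultures, so p-values measure the spread between these libraries, and it names 1.5 g/L as the control. The other groups had 1 g/L (N1) and 0 g/L (N0). All groups share the same strain label, and NaNO3 is the one difference the labels give. The sources used here give no culture conditions, harvest time or batch.

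Algae take up nitrate and reduce it, through nitrite, to ammonium, which glutamine synthetase and glutamate synthase build into amino acids. When nitrogen becomes short, green algae slow their division, draw on chlorophyll and protein as nitrogen stores, and direct carbon into starch and triacylglycerol. Species of this group are grown for oil for that reason. The series title names lipid accumulation under varying nitrogen deprivation as the subject, and this comparison asks what changed in the transcriptome at the lower, but not zero, nitrate level.

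A feature here is a contig of an assembled transcriptome, named in the form that Trinity gives, and the files do not pair names with genes, functions or sequences. The results are therefore described by level, length, size of change and pattern over the libraries, and no statement is made on any pathway. Near-identical contigs may share reads, and the kit named in the labels is not stated to keep strand, so single features are uncertain in that respect. Levels are in CPM, counts scaled to a common library total, after TMM scaling unless stated. They are shares of a library, so a change in RNA per cell, or in the proportion of cells in one state, cannot be told apart from a change in one transcript.

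The libraries held between 22027761 and 23906213 estimated counts in N1.5 and between 22376637 and 22732736 in N0.5. Pearson's correlation of log2 CPM across features was 0.982 to 0.984 between libraries of N1.5, 0.982 to 0.985 within N0.5, and 0.934 to 0.940 between the groups. Features are not independent replicates, so these are descriptions. The biological coefficient of variation, edgeR's measure of spread between libraries beyond counting error, was 9.42% in N1.5 and 9.38% in N0.5. Of 41 features nearly restricted to N0 (at least 10 CPM there and at most 2% of that level in any other group), the median level in N1.5 replicates 1, 2 and 3 was 0.37, 0.40 and 1.14% of the N0 level. In the N0.5 libraries, in the same order, it was 1.02, 1.11 and 0.16%. Replicate 3 of N1.5 and replicates 1 and 2 of N0.5 thus carried more of this trace than the rest, and some results are also given without these 3 libraries and N1 replicate 1.

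Most of the transcriptome differed between the groups, and most differences were small. By edgeR's quasi-likelihood test, 4715 features were higher in N0.5 and 4834 lower at an adjusted p under 0.05, which is 61.9% of those tested. The 3 N0.5 libraries lay entirely above the 3 N1.5 libraries for 5336 features (34.6%) and entirely below them for 5236 (33.9%), so the groups did not overlap for 68.5% of features. Among the 9549 called features the groups overlapped for 191. Of the called features, 41.7% changed by less than 1.5-fold and 66.9% by less than 2-fold. Called rises had a median log2 fold change of 0.81, and called falls of -0.61. Without N1.5 replicate 3, N1 replicate 1 and N0.5 replicates 1 and 2, only 1 N0.5 library is left, whose spread is taken from the other groups. Calls of that fit are therefore not given. Over its 16067 tested features the median log2 fold change was 0.015, against 0.045 in the main fit.

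A test of the size itself gave a smaller set. Beyond 1.5-fold, edgeR's glmTreat called 1923 features higher in N0.5 (12.5%) and 1751 lower (11.3%), together 23.8% of those tested. Beyond 2-fold it called 811 higher (5.26%) and 738 lower (4.78%). The split beyond 1.5-fold turned with library totals in place of TMM, to 1620 higher and 2070 lower. It also turned in a fit of the 6 libraries alone (1864 and 1878) and with the length and abundance trend removed (1409 and 1486). Without the 4 libraries with the trace of N0 features, where 1 N0.5 library is left, it turned as well.

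**Figure D1:**
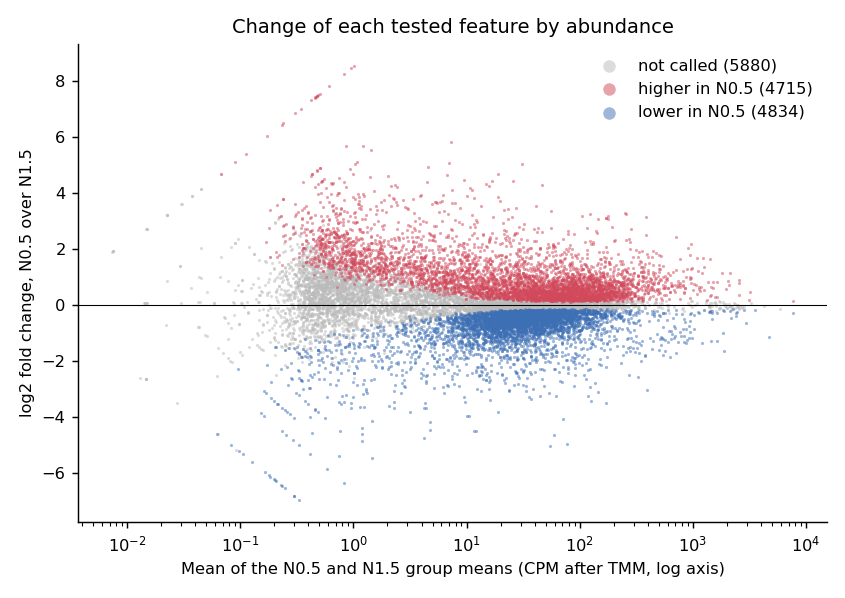
Log2 fold change of N0.5 over N1.5 (vertical axis) against the mean of both group means in CPM (horizontal, log axis) for each tested feature, one point each, with 4715 called higher (red), 4834 called lower (blue) and 5880 not called (grey). Below 1 CPM the called points lie mostly above 0, the diagonal streaks at both edges are features at or near 0 counts in one group, and above 10 CPM both directions are dense at small changes.

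Near-complete gain or loss of a transcript was rare. Of the 635 rises (4.12% of those tested) and 324 falls (2.10%) of 4-fold or more, 356 and 222 belonged to features with a mean of at least 1 CPM over the 6 libraries. At 32-fold or more there were 27 rises (0.175%) and 21 falls (0.136%). After rounding, however, N1.5 was at 0 counts in all its libraries for 19 of the rises and N0.5 for 15 of the falls. The fitted value of such a feature depends on the prior count. With a mean of at least 1 CPM, 8 rises and 2 falls of that size remained. Features with at most 3 counts in every N1.5 library and at least 1 CPM in every N0.5 library numbered 10, and the highest of them reached a mean of 2.83 CPM. None of these 10 had 1 CPM or more in all N1 libraries or in all N0 libraries. The reverse, at most 3 counts in every N0.5 library and at least 1 CPM in every N1.5 library, held for 4 features, which had a mean of at most 2.30 CPM in N1.5. All 4 were at 1 CPM or more in every N1 library, and 3 of them in every N0 library.

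Among features at 10 CPM or more, the direction of change followed length. Effective length, in bases, was taken from the ratio of count to FPKM, and the tested features were divided into 4 classes of equal number with edges at 808, 1385 and 2085 bases. Among features with a mean of at least 10 CPM over the 12 libraries, 102 of 786 in the shortest class rose in N0.5 and 523 fell. In the second class 457 of 2725 rose and 1596 fell, and in the third 880 of 3049 rose and 1324 fell. In the longest class this was turned around, with 1758 of 3381 rising and 720 falling. These shares were 13.0% rising and 66.5% falling in the shortest class and 52.0% rising and 21.3% falling in the longest. Over all lengths, 27.5% rose and 45.3% fell at 10 to 100 CPM, and 50.7% rose and 28.0% fell at 100 CPM or more. Among all tested features, which include those below 10 CPM, 30.6% rose and 31.3% fell. Over all levels the shortest class did not follow this order, with 816 of 3858 rising and 751 falling, against 758 and 1861 of 3857 in the second class, and its own order turned with library totals (18.8% rising and 21.2% falling).

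In finer steps the trend at 10 CPM or more ran through nearly the whole range of lengths. Of the 498 shortest features at 10 CPM or more, with a median of 604 bases, 14.3% rose and 66.3% fell. Of the 497 longest, with a median of 4997 bases, 74.2% rose and 8.45% fell. Rises first outnumbered falls in the bin with a median of 1864 bases. The shift was seen in each N0.5 library: in the shortest bin the median log2 ratio to the N1.5 mean, computed on CPM + 0.5, was -0.40, -0.38 and -0.43 in N0.5 replicates 1, 2 and 3. In the longest bin it was 0.49, 0.51 and 0.49. The N1.5 libraries themselves lay between -0.018 and 0.017 in the shortest bin and between -0.059 and 0.037 in the longest.

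**Figure D2:**
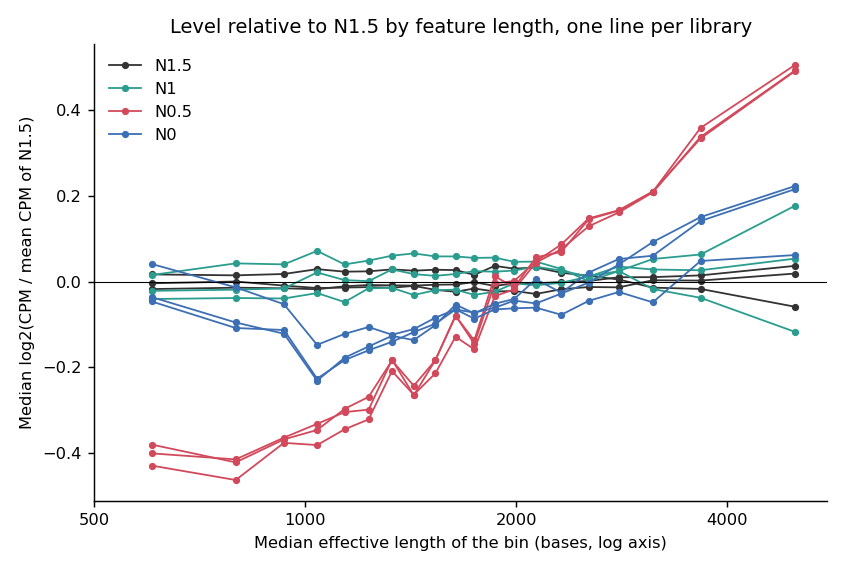
Median log2 ratio of CPM to the N1.5 mean (vertical axis) for 20 bins of features at 10 CPM or more, ordered by median effective length in bases (horizontal, log axis), with one line per library coloured by group. The 3 N0.5 lines run together from about -0.40 at 604 bases to about 0.49 at 4997 bases and lie beyond all other libraries at both ends.

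The other nitrate levels, each against the same N1.5 libraries, showed medians closer to 0 in the shortest and in the longest class. In the shortest class at 10 CPM or more the median log2 fold change was -0.43 in N0.5, -0.0079 in N1 and -0.031 in N0. In the longest it was 0.22 in N0.5, 0.028 in N1 and 0.042 in N0. In the longest bin the N0 libraries had median log2 ratios of 0.062, 0.22 and 0.22, and the N1 libraries -0.12, 0.18 and 0.054. Both groups were below all N0.5 libraries there. The N0 libraries also fell below the control at lengths between these ends, with medians of -0.15, -0.23 and -0.23 in the bin at 1040 bases, where the N0.5 libraries had -0.33, -0.35 and -0.38.

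Summed over a library, the counts moved towards long features. The mean effective length, weighted by counts, was 2057, 2045 and 2032 bases in N1.5 replicates 1, 2 and 3, and 2285, 2295 and 2313 bases in N0.5. The N0.5 values lay above all 9 other libraries, which spanned 2025 to 2104 bases. The group means were 2045 ± 12.5 (SD, n = 3) and 2298 ± 14.4 bases, a difference of 12.4%. The exact permutation test, two-sided, gave p = 0.1 against N1.5 and also against N1 and against N0, the smallest value that 3 libraries against 3 allow. N0.5 replicate 3, which carried the least trace of N0 features, had the highest value, and a link between trace and length was not tested.

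The longest class held 36.7, 36.0 and 36.2% of the counts in the N1.5 libraries and 43.2, 43.6 and 44.2% in the N0.5 libraries. The second class held 26.2, 26.7 and 26.4% in N1.5 and 21.6, 21.5 and 21.2% in N0.5. The shortest class fell from 10.8% ± 0.18 (SD, n = 3) in N1.5 to 8.97% ± 0.21 in N0.5, and the third stood at 26.4% ± 0.19 and 25.8% ± 0.087. In all 4 classes the groups did not overlap, with p = 0.1 by the exact permutation test. The 4 shares of a library depend on each other. The summary of length per library was added after the length pattern was seen, so these p-values are descriptions.

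The labels set a minimum RNA integrity but give no value per library, nor fragment size or run, and their part in the length trend was not tested. With each library's smooth trend over length and abundance removed, 8805 features were called and 7151 of the 9549 called features (74.9%) were again called in the same direction. In that fit 150 were called in the opposite direction. It takes out by construction any trend shared by features of one length and level. The shares in the longest class at 10 CPM or more became 32.2% rising and 38.5% falling.

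Direction also differed with abundance. Features below 10 CPM more often rose than fell in all 4 length classes: 714 of 3072 rose and 228 fell in the shortest class, and 237 of 476 rose and 40 fell in the longest. In the second class the order was narrow, at 301 rises and 265 falls of 1132, and it turned with library totals, which gave 23.4% rising and 25.6% falling. Once the trend with length and abundance was removed it also turned there and in the third class, while the shortest class had 12.7% rising and 10.6% falling and the longest 25.6% and 19.7%. Below 1 CPM, 548 of 2450 tested features rose and 121 fell, and the median log2 fold change was 0.69. With that trend removed, the shares below 1 CPM went from 22.4 to 10.5% rising and from 4.94 to 8.69% falling. Of the 3431 features at that level, 981 did not pass the filter, which lets a feature in when one group alone is high, so these shares do not describe all features of that level. At 10 to 100 CPM 2187 of 7950 rose and 3605 fell, and at 100 CPM or more 1010 of 1991 rose and 558 fell. The order at 100 CPM or more differed with length. In the shortest class 11 of 108 rose and 64 fell, and in the second 90 of 364 rose and 186 fell. In the third class 233 of 499 rose and 150 fell, and in the longest 676 of 1020 rose and 158 fell.

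Precision differed between these levels. The median standard error of the log2 fold change was 0.66 below 1 CPM, 0.30 at 1 to 10 CPM, 0.083 at 10 to 100 CPM and 0.072 at 100 CPM or more. The smallest called change was 0.91 on the log2 scale below 1 CPM and 0.12 at 100 CPM or more. Smaller changes of low features were not detectable at this depth. For a feature without counts, the upper limit of 3 counts stands for 0.125 to 0.136 CPM in these 6 libraries and covers counting error only.

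**Figure D3:**
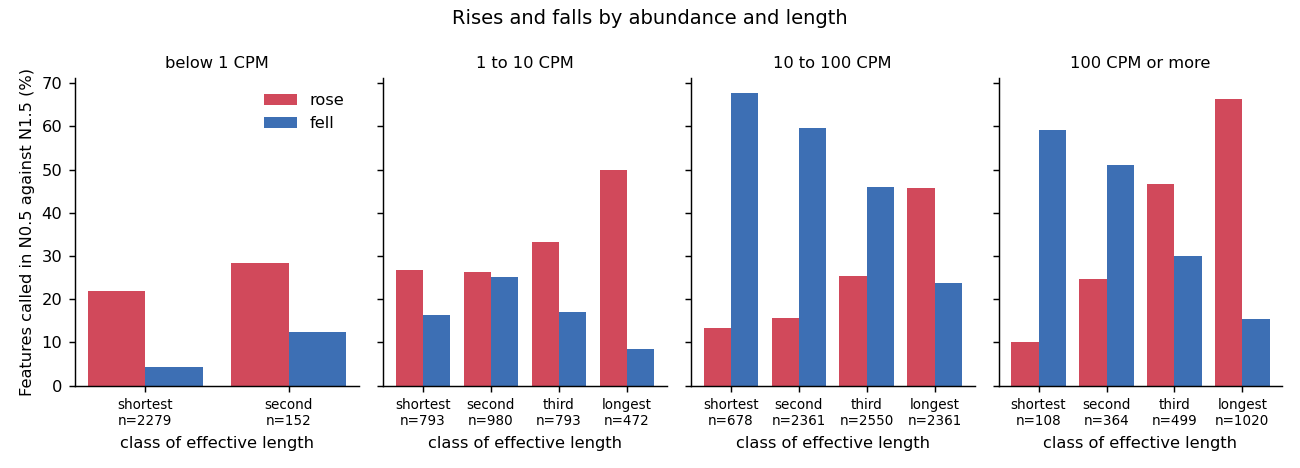
Share of features called higher (red) and lower (blue) in N0.5 against N1.5, in percent, by class of effective length (horizontal) and mean CPM over the 12 libraries (panels); n is the number of tested features, and classes with fewer than 20 are left out. At 10 to 100 CPM falls drop from 67.7% in the shortest class to 23.8% in the longest while rises go from 13.4 to 45.8%, and at 100 CPM or more rises go from 10.2 to 66.3%.

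The number of detected features was higher in N0.5. At 1 CPM or more without TMM scaling there were 12668, 12746 and 12604 features in the N1.5 libraries and 13203, 13191 and 13289 in the N0.5 libraries. The groups did not overlap, and the difference of the means was 555 features (exact permutation test, two-sided, p = 0.1). The 100 most abundant of each library took up 23.0% ± 0.24 (SD, n = 3) of an N1.5 library and 21.7% ± 0.36 of an N0.5 library (exact permutation p = 0.1). Fewer features nevertheless made up the upper 50% of the counts, 820, 840 and 778 in the N1.5 libraries against 703, 723 and 748 in N0.5 (exact permutation p = 0.1). This order turned when FPKM values were used, with a difference of 34 features more in N0.5. With FPKM the 100 most abundant features took up 32.01, 32.57 and 32.03% in the N1.5 libraries and 32.32, 31.61 and 30.77% in N0.5, so the groups overlapped.

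Between a library of N1.5 and one of N0.5, 17.4 to 18.7% of the counts lay on different features, where this share is the sum of all positive differences of the count shares. It was 2.90 to 4.78% between libraries of N1.5 and 2.73 to 4.30% between libraries of N0.5. The redistribution was spread over many features. After TMM scaling, called rises gained 195102 CPM in sum and called falls lost 134187, so gains and losses do not balance as count shares do. Of the CPM that called rises gained after TMM scaling, the 10 largest gains made up 6.86% and the 268 largest made up the upper 50%. Of the CPM that called falls lost, the 10 largest losses made up 10.9% and the 241 largest the upper 50%. The 100 largest gains had a median effective length of 2725 bases and a median change of 2.23-fold. The 100 largest losses had a median effective length of 1213 bases and a median change of 2.25-fold. Sums are taken from the libraries that selected the features, which may enlarge them.

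Of the 100 most abundant features in N1.5, 15 rose and 32 fell, beside 30.6% and 31.3% of all tested features. One of the 15 rose by 2-fold or more and 9 of the 32 fell by as much. Of the 100, 80 were also among the 100 most abundant in N0.5. These features were picked by their level in the same N1.5 libraries, which favours falls, so the counts are a description.

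The 1911 that rose 2-fold or more in N0.5, 12.4% of those tested, held 5.06, 4.74 and 5.14% of the counts in the N1.5 libraries and 12.8, 12.9 and 13.0% in the N0.5 libraries, a difference that the choice of features fixes. On log2(FPKM + 1), filtered, limma called 1077 rises and 1137 falls of this size. With edgeR and the trend over length and abundance removed there were 1279 and 1226. In N1 the 1911 features held 5.75, 5.75 and 5.91%, and in N0 8.64, 8.43 and 8.97%. Choosing features for low N1.5 values can also raise the shares in N1 and N0, by an amount that was not tested, so their place between the groups is a description. The 1249 that fell 2-fold or more, 8.10% of those tested, held 10.3% in each N1.5 library, 3.42, 3.57 and 3.74% in N0.5, 10.7, 9.78 and 10.4% in N1 and 7.71, 7.58 and 7.51% in N0. The same limit holds for these.

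**Figure D4:**
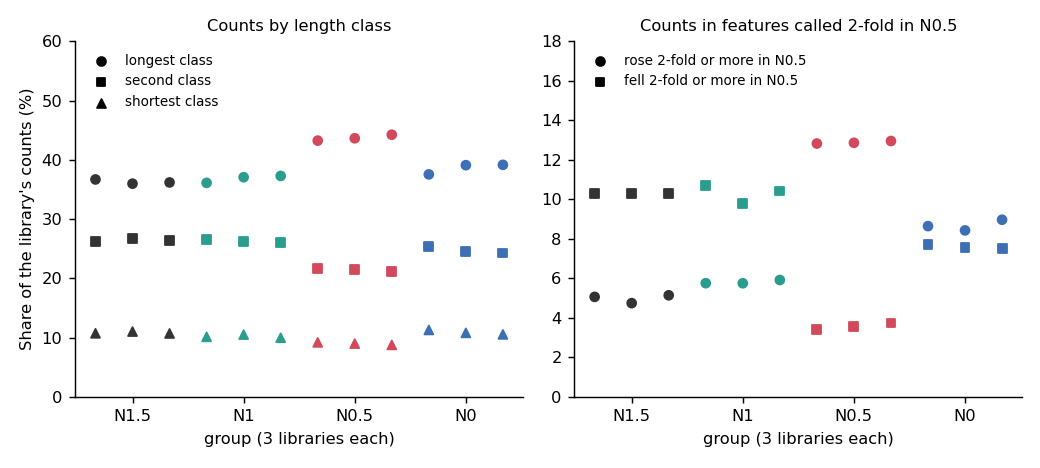
Share of each library's counts in percent (vertical axis) for 3 of the 4 length classes (left) and for features called 2-fold or more higher or lower in N0.5 (right), with one point per library, coloured and arranged by group. The N0.5 libraries hold 43.2 to 44.2% in the longest class against 36.0 to 39.2% in the other 9. On the right their position is fixed by the choice of features. That choice can also move N1 and N0 away from N1.5, and its part there was not tested.

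Single features within these sets varied in N0. For the 1911 risers the median log2 fold change against N1.5 was 1.63 in N0.5, 0.20 in N1 and 0.33 in N0, and the middle 50% of values in N0 ran from -0.47 to 1.27. Of them, 644 were called higher in N0 and 381 lower. For the 1249 fallers the medians were -1.49 in N0.5, -0.070 in N1 and -0.48 in N0, and 730 were called lower in N0 and 188 higher. The comparisons share the N1.5 libraries, which pushes their values to the same side, so these are values side by side. Among all tested features, 57.8% were called in N0, 26.6% higher and 31.2% lower. Tested directly, N0.5 differed from N1 for 60.4% of features, with 29.1% higher and 31.3% lower in N0.5. It differed from N0 for 67.3%, with 33.1% higher and 34.2% lower in N0.5 (edgeR, adjusted p under 0.05).

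The largest rise among features with a mean of at least 5 CPM was that of TRINITY_DN826_c0_g1_i1_4, with an effective length of 1152 bases. It stood at 0.17, 0.31 and 0.27 CPM in the N1.5 libraries and at 12.9, 14.6 and 15.3 CPM in N0.5. The N0.5 libraries were far above all others, as N1 had 0.47, 0.31 and 0.30 CPM and N0 had 0.90, 0.81 and 0.99 CPM. The log2 fold change came to 5.81, standard error 0.27 (edgeR adjusted p = 7.52e-10). Directly against N1 it was 5.29 and against N0 3.97, both called. On the log2(FPKM + 1) scale, which understates changes of low features, the value was 3.42.

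The largest fall was that of TRINITY_DN9559_c0_g1_i1_1, with an effective length of 1513 bases. It stood at 107, 100.4 and 108 CPM in the N1.5 libraries and at 2.32, 3.00 and 4.41 CPM in N0.5. The N1 libraries were near the control at 101, 86.8 and 105 CPM, and the N0 libraries were lower than those of N0.5 at 1.67, 0.77 and 0.90 CPM. In N0.5 the log2 fold change was -5.02, standard error 0.17 (edgeR adjusted p = 7.67e-11), while in N1 it was -0.11 and did not pass the test (adjusted p = 0.684). Without the 4 libraries with the trace of N0 features, where N0.5 replicate 3 alone remains of its group, the value in N0.5 was -4.56.

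The largest gain in CPM was that of TRINITY_DN6956_c0_g1_i1_4, with an effective length of 3496 bases. It went from 1339, 1229 and 1404 CPM in N1.5 to 2670, 2909 and 3260 CPM in N0.5, which moved it from rank 90 to rank 12 by group mean. In N1 it had 917, 898 and 951 CPM and in N0 1052, 779 and 1106 CPM, all below the N1.5 libraries. Against N1.5 the log2 fold change was 1.15, standard error 0.11, in N0.5 (edgeR adjusted p = 1.01e-06), -0.52 in N1 (adjusted p = 0.0122) and -0.44 in N0 (adjusted p = 0.00433). With the trend of each library over length and abundance removed, the value in N0.5 was 0.68. Without the 4 libraries with the trace of N0 features, where N0.5 replicate 3 alone remains of its group, it was 1.34.

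The largest loss in CPM was that of TRINITY_DN4242_c0_g1_i2_1, with an effective length of 4601 bases, the third most abundant feature of the control. It went from 6851, 5894 and 6702 CPM in N1.5 to 2247, 3054 and 3581 CPM in N0.5, a log2 fold change of -1.13, standard error 0.15 (edgeR adjusted p = 1.53e-05). The N0.5 libraries spread more widely here than those of N0, which had 2336, 2110 and 2218 CPM, and the N1 libraries had 7984, 5948 and 7994 CPM. This long feature went against the length trend, and with that trend removed its log2 fold change was -1.84. It was -0.84 without the 4 libraries with the trace of N0 features, where N0.5 replicate 3 alone remains of its group. With each of the 6 libraries left out in turn it was -1.29 to -0.97.

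**Figure D5:**
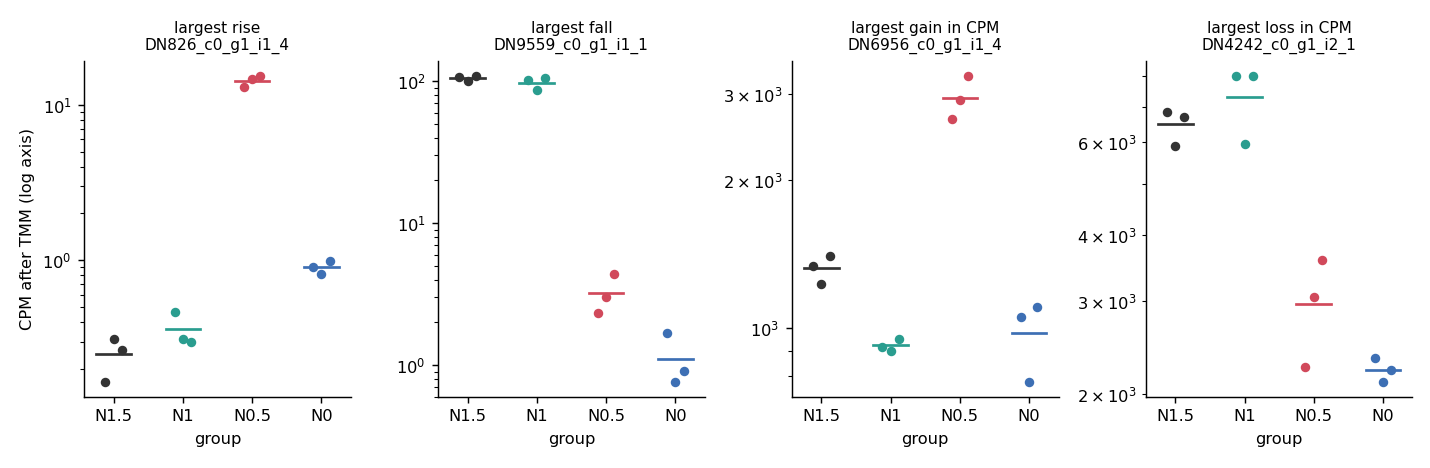
CPM after TMM scaling (vertical, log axis, a separate scale in each panel) of the 4 features named by rule, in each library of N1.5, N1, N0.5 and N0, with a bar at the group mean. The feature of the largest rise reaches 12.9 to 15.3 CPM in N0.5 and stays below 1 CPM elsewhere, and the feature of the largest fall is near 100 CPM in N1.5 and N1 and below 5 CPM in N0.5 and N0.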

How the data were processed

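RNA of 12 samples of Auxenochlorella pyrenoidosa was purified with oligo(dT) beads and sequenced, and the labels' protocols set a minimum RNA integrity for all samples. The 6 libraries of N0.5 and N1.5 are compared here. Trimmomatic 0.40, Bowtie2 2.4.5 and DESeq are named in the submitters' processing notes with no role or order, and the sources used here do not name the counting tool, the assembly or the annotation. The table deposited by the authors holds estimated counts per feature, with 22027761 to 24383226 per library, and was rounded to whole numbers. A second table deposited by the authors holds FPKM values, which are scaled to length and library total. Dividing count by FPKM gave an effective length for each feature, the median over libraries with more than 5 counts.

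Counts were tested with edgeR 4.0.16 in R 4.3.3 by its quasi-likelihood F test, with TMM scaling, filterByExpr by group, all 12 libraries in one fit and no covariate. Of 16413 features, 15429 were tested. P-values are two-sided, with Benjamini-Hochberg adjustment across the 15429 features, and a standard error is the log2 fold change divided by the square root of its F value. A feature is called at an adjusted p under 0.05. The edgeR function glmTreat tested for changes beyond 1.5-fold and 2-fold. One value per library was compared between groups with an exact permutation test, two-sided. Alternatives were RLE and library-total scaling, other filters, only the 6 libraries, a replicate block, DESeq2 1.42.0, limma 3.58.1 on log2(FPKM + 1) and log2(FPKM + 0.1), removal of each library's smooth trend with length and abundance, and left-out libraries.

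No pairing by replicate number was seen: the correlation of deviations of same-numbered N1.5 and N0.5 libraries was -0.00099, -0.033 and -0.064. With 3 libraries in each group, these values cannot show whether the design paired them. The naming rule took, among called features with groups that did not overlap and a mean of at least 5 CPM over the 6 libraries, the largest log2 fold change and the largest CPM difference in each direction, and stops at 2 features a direction because IDs carry no gene names. The comparison, the rules and the lists were chosen with earlier results of these data known, and the summary of length per library was added after the length pattern was seen. The 2 tests planned per Trinity gene were not run. Of 2995 pairs of IDs that differed only in the final number, 157 agreed in effective length within 5%, and the sources used here do not say whether such features belong to one gene.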

Additional observations from a re-analysis of the deposited data

How the results depend on the processing

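The count of called features stayed within 1.5 times the reported one in every alternative run, and so did the counts of changes of 2-fold or more and of features past the test against 1.5-fold. With each of the 6 libraries left out in turn they were 8838 to 8993, 2947 to 3079 and 3344 to 3478. DESeq2 called 9649 and limma 9270 to 9853. The replicate block changed no call of a named feature and gave 9542 calls, although no pairing by replicate number was seen. The majority direction of all calls is not settled: rises were 49.4% with TMM, 50.8% with RLE, 51.1% with DESeq2, 42.4% with library totals and 40.6% at the lowest, in limma on log2(FPKM + 0.1). No named feature lost its call or changed sign.

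In the shortest class at 10 CPM or more, 71.9% fell with library totals. With the trend of length and abundance removed 30.5% rose and 38.8% fell there. In the longest class at 10 CPM or more, 43.7% rose and 25.3% fell with library totals, and 32.2% rose and 38.5% fell with the trend removed, which follows from the construction of that alternative. With FPKM in place of counts the differences of N0.5 minus N1.5 turned for the share of the 10 most abundant features (0.47 percentage points, against -0.68 with counts) and for the number of features making up the upper 50% (34, against -88). The cause was not tested. For the 100 most abundant the difference was -0.63 percentage points against -1.32. It was 664 features at 1 FPKM or more, and 131 bases for the mean effective length weighted by FPKM. The tests per Trinity gene were not run.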

Other observations

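The feature names end in a number from 1 to 4, whose meaning is not given in the sources used here. No 2 features shared both the name up to the gene number and this final number, and the 2995 pairs that differed only in it had a median length ratio of 1.84. The direction of change in N0.5 was unevenly spread over it. Of the 3679 tested features ending in 2, 22.1% rose and 39.4% fell by edgeR's adjusted p, with 212 rises and 463 falls of at least 2-fold. Of those ending in 1, 34.4% rose and 28.4% fell, of those ending in 3, 30.9% and 30.3%, and of those ending in 4, 34.3% and 27.7%. Against N1.5, the median log2 fold changes of endings 1, 2, 3 and 4 were 0.14, -0.16, 0.073 and 0.14 in N0.5. They were 0.032, -0.014, -0.0019 and 0.031 in N1, and 0.070, -0.035, -0.13 and 0.041 in N0.

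Over all levels, between 44.1% (ending in 2) and 55.9% (ending in 4) of the longest class rose, and between 44.4% (ending in 4) and 55.6% (ending in 2) of the second class fell. In the shortest class, falls outnumbered rises among features ending in 2 (28.9% against 9.08%), while rises outnumbered falls among those ending in 1 (26.2% against 16.9%), 3 (21.6% against 17.2%) and 4 (26.3% against 15.9%). There, features ending in 2 had a median log2 fold change of -0.22, whereas those ending in 1, 3 and 4 had 0.62, 0.44 and 0.53. Of all 15429 tested features, 4423 ended in 1, 3679 in 2, 3941 in 3 and 3386 in 4. All 4 features present in N1.5 and nearly absent in N0.5 ended in 2. Of the 10 present in N0.5 and nearly absent in N1.5, 6 ended in 1, 2 in 3 and 2 in 4. These counts were made after the uneven spread had been seen.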
